A study of Danio rerio with 6 samples.

Results

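The genes *myca* (NM_131412), *cdkn1a* (NM_001128420) and *ccnh* (NM_001013453), 3 regulators of cell proliferation, were followed in guts of zebrafish larvae after injection of IL-26. They are 3 of 16134 transcript rows in the count table, and each is the sole row of its gene. They were chosen because of how they differed in this same comparison, so their own values are given as a description and without a test. Genes that act with them were tested, although their lists were also drawn up with earlier results of these data known.

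All larvae were wild type (WT) and 5 days post-fertilization (dpf). The treated group was injected in the gut and swim bladder with rzIl26, a recombinant form of the zebrafish cytokine, and the control group with BSA, bovine serum albumin, at the same protein concentration. Guts were dissected 1 h after injection and 10 to 15 were pooled per library, with 3 libraries per group described as biological replicates. No uninjected group and no later time was analysed here, and a whole gut holds many cell types, so that fewer cells of a type and less RNA per cell cannot be told apart.

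Myc proteins are transcription factors that bind DNA together with Max and promote growth and cell division. Their transcripts are short-lived and respond quickly to signals from outside the cell. The protein p21, made from *cdkn1a*, belongs to the Cip/Kip inhibitors that bind cyclin-dependent kinases (CDKs) and hold cells back from DNA synthesis. It is induced by DNA damage and by other stress and growth signals. Cyclin H, made from *ccnh*, joins Cdk7 and Mnat1 in the CDK-activating kinase, which switches on cell cycle CDKs and, as a part of the transcription factor TFIIH, phosphorylates RNA polymerase II. In the gut, Myc is known for its role in dividing progenitors, and p21 for its association with cells that leave the cycle.

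Values are normalized CPM, which are counts scaled to a common library size after a correction for composition (TMM). Differences between groups are given as log2 fold changes of rzIl26 over BSA (log2FC). Libraries held 15156164 to 22219894 counts, and scaling factors were 0.920 to 0.980 after BSA and 1.049 to 1.070 after rzIl26. Libraries differed from each other by more than sampling noise in every pair. Of the markers of gut epithelium, all 11 had counts in every library, although *fabp2* averaged 15.2 counts. Their summed level was 43101 to 44592 CPM after BSA and 29720 to 34471 CPM after rzIl26, with no overlap (two-sided exact permutation test, p = 0.1, the smallest that 3 against 3 libraries allow). Of these 11 markers 2 were called higher, 2 lower and 7 did not pass, with a median log2FC of -0.07 by edgeR. Over all transcript rows tested, 18.9% were called in either direction. The chitinase transcript *chia.2* had the highest level, with means of 23431 and 14668 CPM, and was lower (log2FC -0.68, adjusted p = 0.0053). The apolipoprotein transcript *apoa4b.1*, with means of 9220 and 6481 CPM, was also lower (-0.51, adjusted p = 0.011). Most of the summed level was these 2 transcripts. The groups overlapped for *vil1* (means of 3089 and 3192 CPM) and *cdh17* (1289 and 1377 CPM). Without overlap, *fabp6* was higher (3242 and 3899 CPM) and *slc15a1b* lower (2031 and 1508 CPM), and neither was called. The apolipoprotein transcript *apoa4a* (0.90, adjusted p = 0.027) and the annexin transcript *anxa4* (0.37, adjusted p = 0.013) were higher.

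*myca* was at 39.5, 41.4 and 38.4 CPM in BSA replicates 1 to 3 and at 18.3, 15.3 and 15.1 CPM in rzIl26 replicates 1 to 3. Every treated library lay far below every control library, and the lowest control was 2.10 times the highest treated value. The libraries of a group were close, with the highest 1.08 times the lowest after BSA and 1.21 times after rzIl26. The group means were 39.8 ± 1.5 CPM and 16.2 ± 1.8 CPM (SD, n = 3), a log2FC of -1.29 (SE 0.10). Ordered by fold change, *myca* was the 44th lowest of the 10576 rows that had enough counts to be tested.

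*cdkn1a* was at 35.8, 24.8 and 16.3 CPM in BSA replicates 1 to 3 and at 107.0, 80.2 and 51.1 CPM in rzIl26 replicates 1 to 3. Again the groups were apart, and the lowest treated library was 1.43 times the highest control. Here the libraries within a group differed widely, by 2.20 times between the highest and lowest after BSA and by 2.10 times after rzIl26. The means were 25.6 ± 9.8 CPM and 79.4 ± 28 CPM (SD, n = 3), a log2FC of 1.63 (SE 0.34), which ranked *cdkn1a* as the 72nd highest row. The standard error was more than that of *myca* although *cdkn1a* had more counts, with a mean of 986 counts per library against 510 for *myca*.

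*ccnh* was at 6.93, 8.50 and 7.59 CPM in BSA replicates 1 to 3 and at 5.55, 5.06 and 5.66 CPM in rzIl26 replicates 1 to 3. The groups did not overlap, but the gap was narrow, with the lowest control 1.22 times the highest treated value. The means were 7.67 ± 0.79 CPM and 5.43 ± 0.32 CPM (SD, n = 3), a log2FC of -0.50 (SE 0.13). This placed *ccnh* as the 936th lowest row.

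**Figure D1:**
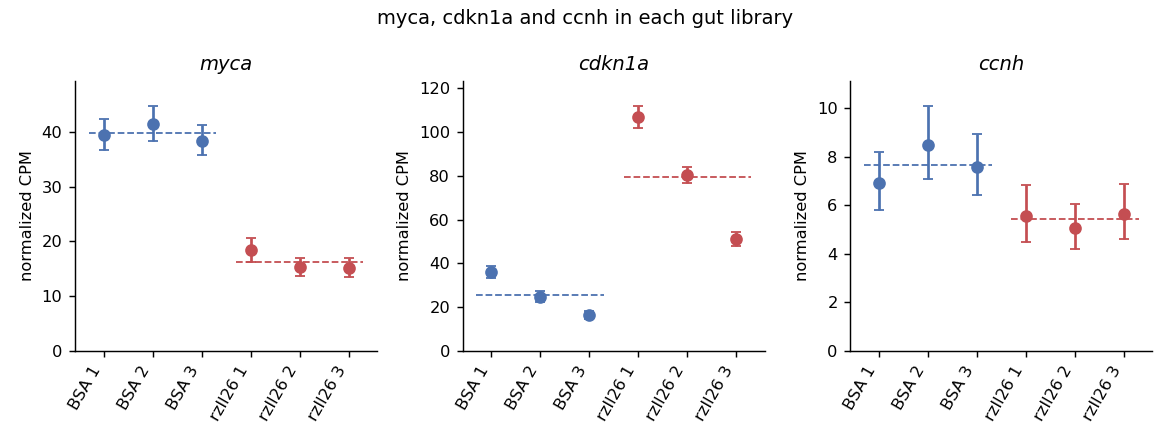
Normalized CPM of *myca*, *cdkn1a* and *ccnh* in each library. Points are libraries, bars are exact Poisson 95% intervals of the counts and dashed lines are group means, which were 39.8 and 16.2 CPM for *myca*, 25.6 and 79.4 CPM for *cdkn1a*, and 7.67 and 5.43 CPM for *ccnh*.

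The counts behind these values set how finely libraries can be told apart. Exact Poisson 95% intervals, which cover counting error only, separated all 6 libraries from each other for *cdkn1a*, so its spread within groups was more than counting error. For *myca* the lowest bound among controls was 35.7 CPM and the highest bound among treated libraries was 20.5 CPM. The intervals of the 3 BSA libraries overlapped, as did those of the 3 rzIl26 libraries. They do not separate the libraries of a group for *myca*, and overlap alone does not show that these are equal. *ccnh* had 90 to 147 counts per library. The interval of its lowest control, BSA replicate 1, ran from 5.80 to 8.21 CPM and overlapped those of all 3 treated libraries, which reached up to 6.06 to 6.85 CPM.

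All 3 genes were without overlap between groups, which was also true of 39.6% of the rows tested (18.7% with rzIl26 above and 20.9% with rzIl26 below), and nothing is read from that share because the members were chosen on this comparison. In 15 other ways of processing the counts each member kept its direction. The members were chosen on these same libraries, so kept direction is a description and no support for them. The log2FC ran from -1.39 to -1.13 for *myca*, from 1.36 to 1.95 for *cdkn1a* and from -0.57 to -0.34 for *ccnh*. The value of *cdkn1a* was 1.95 without BSA replicate 1 and 1.36 without rzIl26 replicate 1, the libraries in which it was highest in each group. With library totals in place of TMM scaling the whole distribution shifted by a median of 0.16, and *ccnh* came to -0.34 and *myca* to -1.13.

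**Figure D2:**
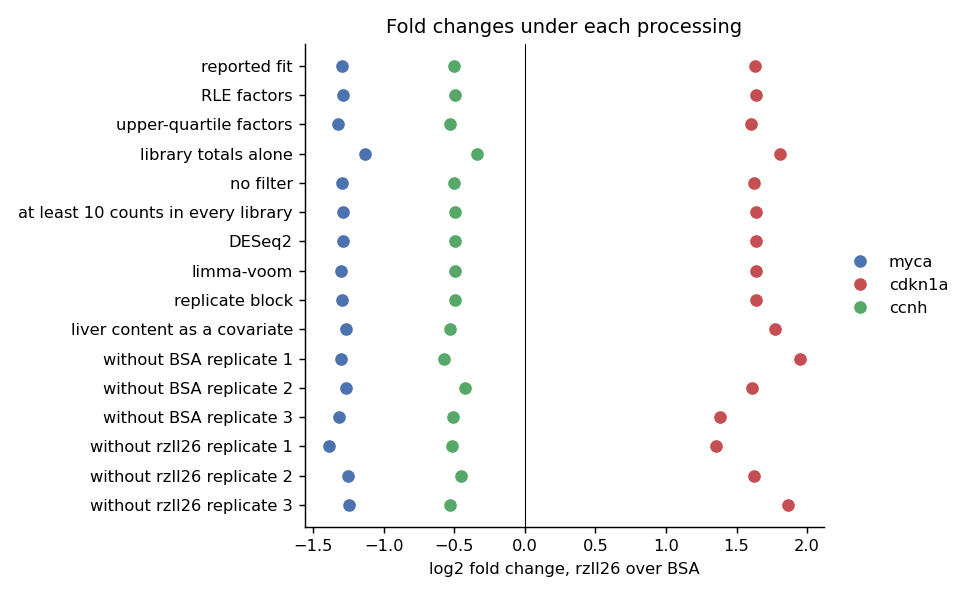
Log2FC (rzIl26 over BSA) of *myca*, *cdkn1a* and *ccnh* in the reported fit and under 15 other ways of processing. The members were chosen on these same libraries, so that no point crosses 0 is no support for them. The widest range, from 1.36 to 1.95, is that of *cdkn1a*.

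The other Myc genes were examined next, since a cell can hold several Myc proteins with shared partners. All 5 further members of the family that were measured, *mycb*, *mycn*, *mych*, *mycla* and *myclb*, had log2FCs above 0, with a median of 0.46, where the median over all rows was 0.01. Of these 5, *mycn* passed the test as higher and the other 4 did not pass. Over all rows tested, 9.27% were called higher and 9.6% lower. A call means a p-value under 0.05 in edgeR's quasi-likelihood test after Benjamini-Hochberg adjustment over all rows.

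*mycn*, known best from neural and progenitor tissues, was at 4.84, 5.45 and 6.45 CPM in BSA replicates 1 to 3 and at 8.33, 8.24 and 9.90 CPM in rzIl26 replicates 1 to 3. It rose from 5.58 ± 0.81 to 8.82 ± 0.93 CPM (SD, n = 3), with no overlap, a log2FC of 0.66 (SE 0.15, adjusted p = 0.026 by edgeR). That call was lost without BSA replicate 1 (adjusted p = 0.088), BSA replicate 2 (0.080), rzIl26 replicate 2 (0.060) or rzIl26 replicate 3 (0.069), and with liver content as a covariate (0.053), over a range of 0.0099 to 0.088 in all alternatives.

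*mycb*, the zebrafish duplicate of *myca*, was at 54.7, 69.9 and 53.4 CPM after BSA and at 86.2, 103.7 and 70.8 CPM after rzIl26. The lowest treated library lay just above the highest control. Its log2FC of 0.55 (SE 0.16) gave an adjusted p-value of 0.054 and was not called. *mycb* was called by DESeq2 (adjusted p = 0.010), with library totals (0.021) and without rzIl26 replicate 3 (0.039), and the alternatives gave 0.010 to 0.16.

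*mych*, the Myc gene with the most counts in these guts, was at 134.2, 136.4 and 120.2 CPM after BSA and at 140.6, 165.0 and 144.3 CPM after rzIl26, a log2FC of 0.20 (SE 0.09, adjusted p = 0.16 by edgeR), which passed with library totals (0.023). *mycla* was at 0.46 (SE 0.24, adjusted p = 0.23) and *myclb*, with 23.3 counts on average, at 0.19 (SE 0.25, adjusted p = 0.64), and their groups overlapped.

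The count of *myca* divided by that of a relative in the same library does not depend on how libraries are scaled. The ratio of *myca* to *mycb* counts was 0.722, 0.593 and 0.719 in BSA replicates 1 to 3 and 0.213, 0.147 and 0.214 in rzIl26 replicates 1 to 3. The mean ratio in controls was 3.55 times that after rzIl26, compared with 2.45 times for *myca* alone. Of all counts assigned to the 6 Myc rows, *myca* held 16.6% ± 0.5 after BSA and 6.08% ± 0.99 after rzIl26 (SD, n = 3), whereas *mycb* held 24.6% ± 2.1 and 32.1% ± 3.1. Longer transcripts collect more counts, so these shares compare libraries and not the genes with each other. How reads shared by related transcripts were assigned is not stated.

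**Figure D3:**
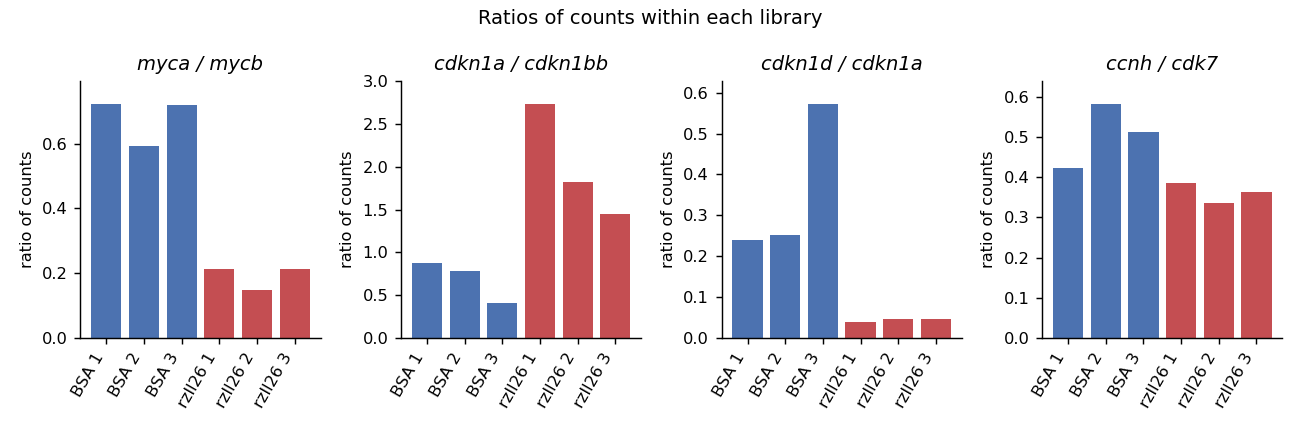
Ratio of raw counts of paired genes in each library, for *myca* to *mycb*, *cdkn1a* to *cdkn1bb*, *cdkn1d* to *cdkn1a* and *ccnh* to *cdk7*. Bars are single libraries, and *myca* to *mycb* ran from 0.593 to 0.722 after BSA and from 0.147 to 0.214 after rzIl26. Each ratio holds a member chosen on this comparison, so nothing is read from groups that lie apart. The ratio of *ccnh* to *mnat1*, in which the groups overlapped, is not shown.

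*max* and other genes of the wider Max network made up a second set. Of 12 genes listed 8 had a row and 6 could be tested, and 2 of these were lower and 0 higher, and 3 had p-values under 0.05 before adjustment. The median log2FC was -0.05, and of all rows tested 9.6% were called lower. *max* itself was at 115.3, 119.1 and 117.1 CPM after BSA and at 142.7, 129.2 and 142.8 CPM after rzIl26. These groups were apart by a small step, at 0.24 on the log2 scale (SE 0.07), and the adjusted p-value was 0.056. It passed with library totals (0.015) and with at least 10 counts in every library (0.046).

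*mxd3*, a Max-binding repressor that is expressed in dividing cells, was at 1.87, 1.20 and 1.96 CPM after BSA and at 0.56, 0.77 and 0.49 CPM after rzIl26, from 21.3 counts on average. It fell by 1.45 on the log2 scale (SE 0.31, adjusted p = 0.021), and this call was lost without BSA replicate 1 (0.075), BSA replicate 3 (0.073) or rzIl26 replicate 3 (0.060) and with liver content as a covariate (0.054). *mlxipl*, whose mammalian counterpart ChREBP responds to glucose, fell from 20.0 ± 1.6 to 13.3 ± 1.5 CPM (SD, n = 3; log2FC -0.59, SE 0.12, adjusted p = 0.017), a call lost without BSA replicate 1 (0.059), BSA replicate 2 (0.052) or rzIl26 replicate 2 (0.052). *mlxip* was at 0.36 (SE 0.19, adjusted p = 0.21), and its groups overlapped. The rows of *mxi1* and *mlx* that were counted are listed at 0 in all libraries.

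Genes that Myc proteins are known to activate in mammals were, where called, higher. Of 19 tested, 8 were higher and 0 lower (10 with p under 0.05 before adjustment), and the median log2FC was 0.23. Among all rows tested 9.27% were called higher. The 4 with the lowest p-values encode nucleolar proteins of ribosome assembly. *npm1a* rose from 157.9 ± 5.8 to 260.9 ± 10.1 CPM (SD, n = 3; log2FC 0.72, adjusted p = 0.0038), and *nop58* from 112.7 ± 7.8 to 157.7 ± 7.1 CPM (0.49, adjusted p = 0.011). *ncl* rose by 0.33 (adjusted p = 0.013) and *fbl* by 0.45 (adjusted p = 0.014), and the *fbl* call was lost without BSA replicate 2 (adjusted p = 0.051).

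**Figure D4:**
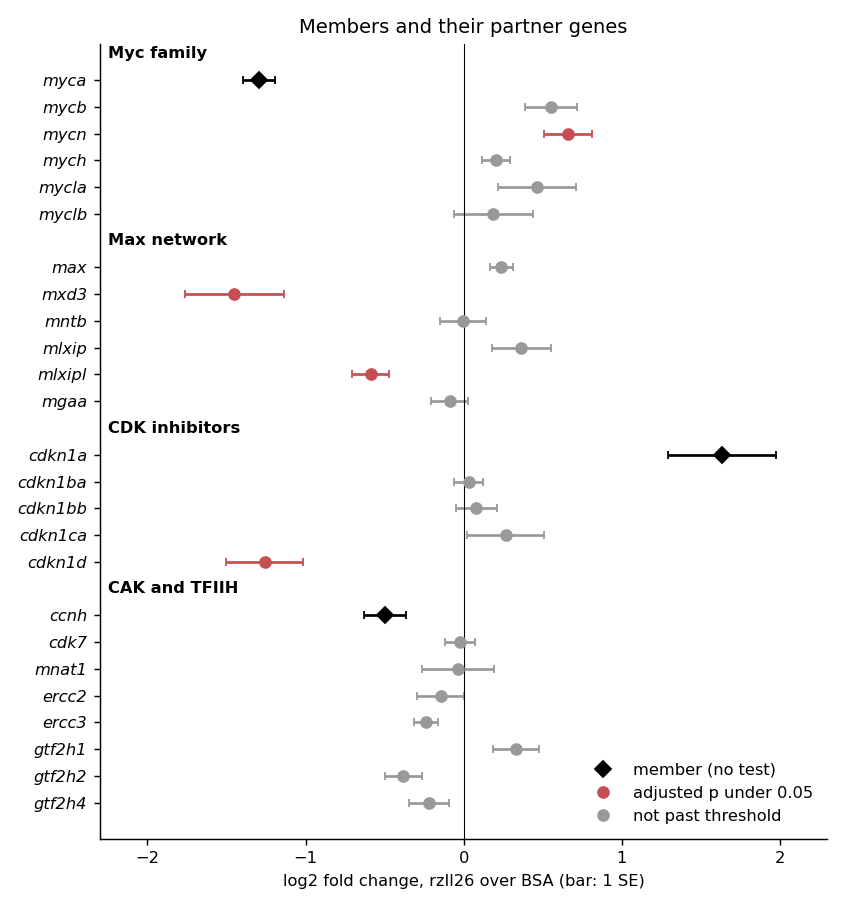
Log2FC (rzIl26 over BSA) with 1 SE for every tested gene of the Myc family, the Max network, the CDK inhibitors and the CDK-activating kinase with TFIIH. The members *myca* (-1.29), *cdkn1a* (1.63) and *ccnh* (-0.50) are black diamonds without a test, and among the others *mycn* was higher and *mxd3*, *mlxipl* and *cdkn1d* were lower.

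CDK inhibitors were compared with *cdkn1a* in turn. Of 10 genes listed 6 had a row, and besides *cdkn1a* 4 could be tested. Of these, 1 was lower and 0 higher by edgeR, the same gene alone having a p-value under 0.05 before adjustment. The shares over all rows tested were 9.6% lower and 9.27% higher. The p27 genes *cdkn1ba* and *cdkn1bb*, which like p21 bind cyclin-CDK complexes, were at 38.8 to 40.6 CPM and 31.5 to 41.0 CPM after BSA and at 36.2 to 43.0 CPM and 35.2 to 44.1 CPM after rzIl26. Their groups overlapped, with log2FCs of 0.03 (SE 0.09, adjusted p = 0.84) and 0.08 (SE 0.13, adjusted p = 0.71). The p57 gene *cdkn1ca* was at 0.27 (SE 0.24, adjusted p = 0.48). *cdkn2c*, an inhibitor of Cdk4 and Cdk6, had 5 to 9 counts per library and was not tested.

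*cdkn1d*, a further Cip/Kip gene, moved opposite to *cdkn1a*. It was at 8.59, 6.24 and 9.29 CPM in BSA replicates 1 to 3 and at 4.13, 3.65 and 2.34 CPM in rzIl26 replicates 1 to 3. It fell from 8.04 ± 1.60 to 3.37 ± 0.93 CPM (SD, n = 3), a log2FC of -1.26 (SE 0.24, adjusted p = 0.016 by edgeR), and the groups did not overlap. The call was lost without BSA replicate 1 (0.057) or BSA replicate 3 (0.053) and held in the other 13 alternatives.

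Within libraries, there were 0.240, 0.252 and 0.571 counts of *cdkn1d* per count of *cdkn1a* after BSA and 0.0386, 0.0455 and 0.0458 after rzIl26. This ratio spanned a narrow range after rzIl26 although *cdkn1a* itself varied 2.10 times there. *cdkn1a* counts per count of *cdkn1bb* were 0.873, 0.785 and 0.410 after BSA and 2.73, 1.82 and 1.45 after rzIl26.

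Other genes of growth arrest and the damage response went in both directions. Of 19 tested genes on that list 3 were higher, 3 were lower and 13 did not pass, with a median log2FC of 0.06. The share called in either direction over all rows tested was 18.9%. *gadd45ab*, a gene induced by growth arrest and damage, fell from 44.2 ± 4.9 to 25.6 ± 1.7 CPM (SD, n = 3; log2FC -0.79, adjusted p = 0.0063), and *sesn3*, a sestrin that restrains growth signalling, from 114.0 ± 7.1 to 69.4 ± 9.7 CPM (-0.72, adjusted p = 0.010). *plk3*, a stress-responsive kinase gene, rose by 0.64 (adjusted p = 0.015) and *phlda3*, an inhibitor of Akt, by 0.59 (adjusted p = 0.016). The *plk3* call was lost without BSA replicate 1 (0.051) or rzIl26 replicate 2 (0.0503), and the *phlda3* call without BSA replicate 1 (0.057), BSA replicate 2 (0.058) or rzIl26 replicate 2 (0.056).

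For *ccnh*, the partners in the CDK-activating kinase and in TFIIH were compared. Of 10 genes listed all had a row, and besides *ccnh* 7 could be tested. None of the 7 passed the edgeR test in either direction, although 2 had p-values under 0.05 before adjustment, and DESeq2 and limma-voom also called 0. Of all rows tested, edgeR called 18.9% in either direction. The median log2FC of the 7 was -0.15, and it was 0.01 with library totals. The rows of *gtf2h3* and *gtf2h5* are listed at 0 in all libraries.

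*cdk7*, the kinase that cyclin H activates, was at 16.4, 14.6 and 14.8 CPM in BSA replicates 1 to 3 and at 14.4, 15.1 and 15.6 CPM in rzIl26 replicates 1 to 3. The libraries overlapped, with a log2FC of -0.02 (SE 0.09, adjusted p = 0.89). *mnat1*, which steadies the complex, was at 2.71, 3.32 and 2.58 CPM and at 2.16, 2.70 and 3.48 CPM (log2FC -0.04, SE 0.23, adjusted p = 0.92). The ratio of *ccnh* to *cdk7* counts was 0.424, 0.582 and 0.514 after BSA and 0.386, 0.336 and 0.362 after rzIl26, which left the groups apart by a small margin, while the ratio of *ccnh* to *mnat1* counts overlapped.

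Among the TFIIH subunits, the groups of *ercc3* and *gtf2h2* did not overlap. *ercc3*, a helicase used in transcription and in DNA repair, was at 32.1 to 34.2 CPM after BSA and at 27.2 to 29.3 CPM after rzIl26 (log2FC -0.24, SE 0.08, adjusted p = 0.070). *gtf2h2*, a core subunit, was at 7.38 to 8.24 CPM and at 5.77 to 6.39 CPM (-0.38, SE 0.12, adjusted p = 0.063). The *gtf2h2* difference passed with upper-quartile scaling (adjusted p = 0.049). The core subunit gene *gtf2h1* was at 0.33 (SE 0.14, adjusted p = 0.15) and passed with library totals (0.043). The helicase gene *ercc2* was at -0.15 (adjusted p = 0.53), and the core subunit gene *gtf2h4* was at -0.22 (adjusted p = 0.26).

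Cyclins and kinases that act in transcription, as cyclin H does, were listed separately. Of 14 genes listed 11 had a row and 8 could be tested. The row used for *ccnt2a* is listed at 0 in all libraries, and *cdk9* and *ccnl1a* had at most 2 and 1 counts. Of the 8 tested 4 were higher and 1 was lower, with a median log2FC of 0.29. Over all rows tested the shares were 9.27% higher and 9.6% lower. *ccnc*, the cyclin of the Mediator kinase, fell from 24.8 ± 1.8 to 16.7 ± 0.9 CPM (SD, n = 3; -0.57, SE 0.09, adjusted p = 0.010), and its partner kinase gene *cdk8* was at 0.43 (SE 0.11, adjusted p = 0.038). *ccnl1b*, a cyclin linked to splicing, was at 0.41 (adjusted p = 0.020) and *ccnk*, the cyclin of Cdk12 and Cdk13, at 0.31 (adjusted p = 0.027). The *ccnk* call was lost whichever of the 6 libraries was left out (adjusted p from 0.052 to 0.093) and with liver content as a covariate (0.056). The *cdk8* call was lost without every library except rzIl26 replicate 1 (up to 0.12) and with the liver covariate (0.082), and the *ccnl1b* call without BSA replicate 1 (0.074), BSA replicate 3 (0.068) or rzIl26 replicate 2 (0.060). The *ccnc* call was kept in all 6.

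Genes of the cell cycle, which Myc, p21 and the CDK-activating kinase help to control, went in both directions. Of 18 tested genes of G1 and S phase 2 were higher and 2 lower, with a median of 0.12, where 18.9% of all rows tested were called in either direction. *ccnd1*, the cyclin of early G1, was at 51.0 ± 1.6 and 65.0 ± 3.7 CPM (SD, n = 3; log2FC 0.35, adjusted p = 0.022), and *e2f8*, a repressor of E2F targets, at 3.27 ± 0.20 and 6.44 ± 1.73 CPM (0.98, adjusted p = 0.025). *e2f6*, a repressor of the E2F family, was at -0.80 (adjusted p = 0.025) and *rbl1*, a relative of the retinoblastoma gene, at -0.46 (adjusted p = 0.029). Each of these 4 calls was lost in 4 or 5 of the 6 fits without 1 library: *ccnd1* without each BSA library and rzIl26 replicate 2 (adjusted p up to 0.085), *e2f6* in all but rzIl26 replicate 1 (up to 0.082), *e2f8* in all but rzIl26 replicate 3 (up to 0.084) and *rbl1* in all but BSA replicate 2 (up to 0.096). *rbl1* was also lost with library totals (0.11) and with the liver covariate (0.064).

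Of 15 genes of G2 and mitosis listed, 10 could be tested. The rows used for *cdk1*, *cks2* and *wee2* are listed at 0 in all libraries, and *plk1* and *wee1* had at most 1 and 6 counts. Those tested had 9.5 to 74.8 counts on average, so small differences could be missed. Of these 10, 0 were called by edgeR, DESeq2 or limma-voom, where edgeR called 18.9% of all rows tested in either direction. In edgeR 1, the mitotic kinase gene *aurka*, had a p-value under 0.05 before adjustment (log2FC 0.51, adjusted p = 0.12). Next by p-value were *ccnb2* (0.66, adjusted p = 0.21, 9.5 counts on average), *pkmyt1* (-0.43, adjusted p = 0.26) and *foxm1* (0.64, adjusted p = 0.28). Among 10 proliferation markers 1 was lower by edgeR (2 by DESeq2) and 0 higher, 4 with p under 0.05 before adjustment, with a median of -0.13. By edgeR, 9.6% of all rows tested were called lower and 9.27% higher. The lower gene was *mcm2*, a subunit of the replicative helicase, at 22.0 ± 1.2 and 15.6 ± 0.5 CPM (SD, n = 3; log2FC -0.49, adjusted p = 0.012), a call lost with library totals (0.052). *rrm1* was at 25.2 ± 3.8 and 19.0 ± 1.0 CPM (SD, n = 3; -0.41, adjusted p = 0.057). *mcm5* was at 16.2 ± 2.6 and 12.4 ± 0.8 CPM (SD, n = 3; -0.38, adjusted p = 0.092). Both were lower without overlap and were not called, although *rrm1* passed as lower in 2 of 15 alternatives. Groups without overlap were found in 20.9% of all rows tested with rzIl26 below and in 18.7% with rzIl26 above. The dividing-cell marker *mki67* was at 15.7 ± 1.0 and 18.5 ± 0.2 CPM (SD, n = 3; 0.23, adjusted p = 0.11). It was higher, also without overlap, and passed as higher with library totals (0.020).

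Rows with the pattern most like each member were found by the root mean square difference of log2 CPM, each row centred on its own mean over the 6 libraries. There were 7269 rows with at least 100 counts on average to choose from. All of these rows share libraries and the same comparison, so likeness is a description and was not tested.

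The rows closest to *cdkn1a* were *fosab* (difference 0.21), *si:ch211-132b12.7* (0.23), *junba* (0.32) and *ier2a* (0.32). *fosab*, *junba* and *ier2a* are immediate early genes, which are switched on within minutes of a stimulus without new protein synthesis. *fosab* was at 109.8, 92.5 and 45.8 CPM in BSA replicates 1 to 3 and at 247.7, 230.1 and 137.0 CPM in rzIl26 replicates 1 to 3. As in *cdkn1a*, replicate 3 was the lowest library of each group in all 4 of these rows. The highest library was 2.40 times the lowest for *fosab* after BSA, close to the 2.20 times of *cdkn1a*. The members' own root mean square departure from their mean was 0.93 for *cdkn1a*, 0.65 for *myca* and 0.26 for *ccnh*, against which these differences can be read.

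*myca* was matched more closely, by *zgc:123297* (0.05), *tm7sf2* (0.08), *chia.3* (0.11) and *aqp10a* (0.13). *tm7sf2*, an enzyme gene of sterol synthesis, was at 50.7, 52.9 and 46.8 CPM after BSA and at 23.9, 22.2 and 21.0 CPM after rzIl26. *chia.3*, an acidic chitinase gene, was at 294.4 to 341.4 CPM and at 126.0 to 177.6 CPM. *ccnh* was matched by *prcc* (0.03), *taf10* (0.04), *tom1l2b* (0.05) and *ebag9* (0.05). *taf10*, a subunit of the general transcription factor TFIID, was at 21.3, 24.2 and 22.9 CPM after BSA and at 16.0, 15.1 and 17.2 CPM after rzIl26.

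**Figure D5:**
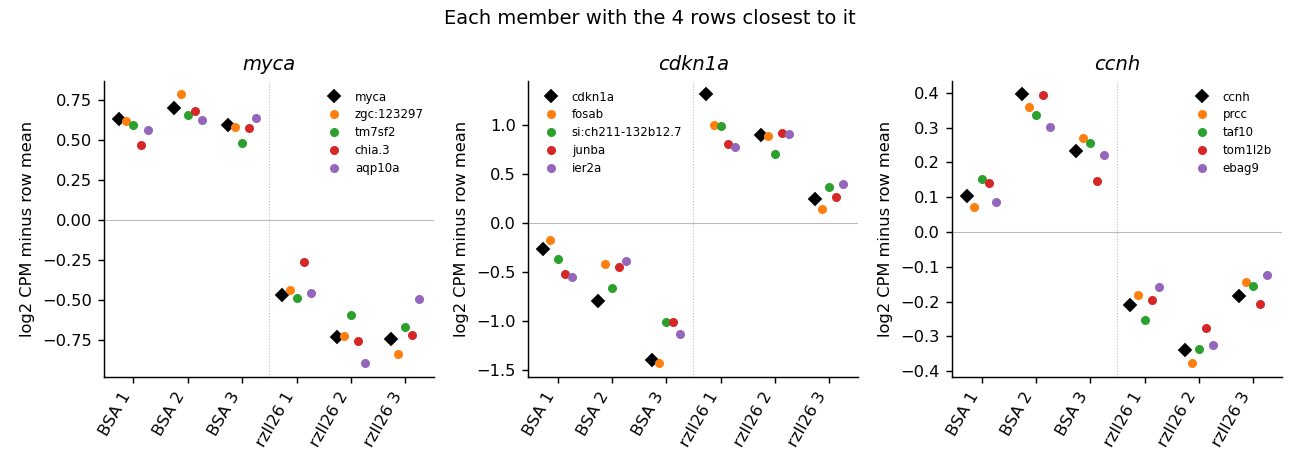
Log2 CPM minus the mean of the row over 6 libraries, for each member (black diamonds) and the 4 rows closest to it. The rows near *cdkn1a* are low in replicate 3 of both groups. The rows near *myca* and *ccnh* have root mean square differences from their member of 0.05 to 0.13 and 0.03 to 0.05. Single points can lie further apart.

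Markers of other tissues differed between libraries as well. The 11 liver markers with a row, all with counts in every library, summed to 2377 to 6871 CPM after BSA and to 2036 to 8362 CPM after rzIl26 (summed level, exact permutation p = 0.4). Of these 11, 0 passed by edgeR, DESeq2 or limma-voom, also before adjustment, where edgeR called 18.9% of all rows tested. With liver content as a covariate the log2FCs of the members were -1.26 for *myca*, 1.77 for *cdkn1a* and -0.53 for *ccnh*. Exocrine pancreas markers summed to 41017 to 56246 CPM and to 29173 to 51384 CPM (exact permutation p = 0.7). The 8 leukocyte markers with a row summed to 126 to 130 CPM after BSA and to 111 to 114 CPM after rzIl26, without overlap (exact permutation p = 0.1). Most of that sum was *rac2*, a GTPase gene, with means of 92.6 and 75.9 CPM. It was the 1 of 4 tested leukocyte markers that was called (lower, adjusted p = 0.041 by edgeR), where 18.9% of all rows tested were called and 9.6% were lower. The lysozyme gene *lyz* was at 1.80 and 3.96 CPM (log2FC 1.16, adjusted p = 0.061) and *cybb*, an oxidase gene, at 6.29 and 7.47 CPM (0.25, adjusted p = 0.36), and the median of the 4 was 0.08. Of these 8 the defining genes *mpx*, *mpeg1.1* and *spi1b* averaged under 1 count per library in the rows used. Skeletal muscle markers summed to 1095 to 1545 CPM and to 1002 to 2116 CPM (exact permutation p = 0.5). Fin fold markers (*and1*, *and2* and *and3*) summed to 5.26 to 8.62 CPM after BSA and to 40.5 to 80.1 CPM after rzIl26, without overlap (exact permutation p = 0.1). All 3 were called higher, where 9.27% of all rows tested were. The part of the gut, leukocyte and fin fold markers, whose summed levels differed between the groups, in the results on *myca*, *cdkn1a* and *ccnh* was not tested.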

How the data were processed

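Per the labels, poly(A) mRNA of pooled larval guts was made into stranded libraries, read as paired ends on an Illumina NovaSeq and aligned to danRer11. The authors deposited raw counts per RefSeq transcript. The aligner, the counting tool and the treatment of shared reads are not given in the sources used here. Columns were matched to samples by library name, and groups came from titles. Symbols came from a RefSeq gene table of the GRCz12tu assembly, for names only (15776 of 16134 rows matched).

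Rows were kept by filterByExpr (minimum count 10), which left 10576, and tested with edgeR 4.0.16 in R 4.3.3 (TMM, quasi-likelihood, group as the sole term, Benjamini-Hochberg over all rows, threshold 0.05). SEs were derived from the fold change and the F statistic. The biological coefficient of variation was 0.163, and libraries held 15156164 to 22219894 counts. The code was tested on simulated data. Genes with several rows were represented by the row with the most counts.

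Members and lists were chosen with earlier results of these data known. Named genes were all of the Myc, CDK inhibitor and CDK-activating kinase lists, the 4 lowest p-values of each other list and the 4 rows most like each member, and tissue markers were named after their values were seen. Alternatives were other scalings and filters, DESeq2 1.42.0, limma-voom (limma 3.58.1), a replicate block, a liver covariate and leaving out each library. A gene of the damage response list is not reported here.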

Additional observations from a re-analysis of the deposited data

How the results depend on the processing

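With library totals alone, 1783 rows were higher and 400 lower (980 and 1015 with TMM), 81.7% against 49.1% higher. Under it the log2 fold change was -1.13 for *myca* and -0.34 for *ccnh*, and the median was 0.39 for Myc targets, 0.0091 for CDK-activating kinase and TFIIH genes and 0.45 for transcription cyclins and kinases, which follows from the shift of 0.16. Leaving out 1 library gave 339 to 874 higher and 398 to 940 lower rows, with fewer samples. The counts moved by over 1.5 times when the library left out was number 1 (339, 398), 2 (481, 497) or 3 (453, 525) of BSA, or number 2 of rzIl26 (404, 420). The other scalings and filters, DESeq2, limma-voom and the covariate kept both counts within 1.5 times. No alternative reversed a called partner gene named in the text, and the called genes not named were not recomputed. Members were not reversed either, from which nothing is read because they were chosen on these libraries.

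Whether replicate numbers pair the libraries cannot be decided from so few libraries. The correlations of same-numbered deviations were 0.31, 0.11 and 0.01, and BSA replicate 2 correlated better with rzIl26 replicate 3 (0.19). The replicate block gave 883 higher and 844 lower rows. With it *mycb* was called (adjusted p = 0.018), and *mxd3* (0.052), *cdk8* (0.051), *ccnk* (0.0501) and *rbl1* (0.058) were not, beside the settings given with those genes.

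Counting error limits *ccnh* most, at 8.2% to 10.5% of the count per library, against 2.3% to 5.6% for *cdkn1a*.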
